A study of Mus musculus with 48 samples.

Results

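The 10 genes described here, Vegfa, Adm, Egln3, Hif3a, Pfkfb3, P4ha1, Bnip3, Ddit4, Ndrg1 and Ankrd37, are known transcriptional targets of the hypoxia-inducible factors (HIF). They were picked by name as HIF targets. Each symbol matched 1 gene identifier among the 46983 genes of the count tables, and all 10 were among the 19970 genes with more than 10 counts over the 48 libraries that were tested.

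HIF is a pair of proteins, an oxygen-sensitive alpha subunit (HIF1A, EPAS1 or HIF3A) and a stable partner (ARNT). While oxygen is present, prolyl hydroxylases of the EGLN family mark the alpha subunit, the VHL ubiquitin ligase binds it and the proteasome destroys it. Under low oxygen the alpha subunit lasts, pairs with ARNT and binds hypoxia response elements near genes for blood vessel growth, glycolysis, matrix and mitochondrial turnover. Because the factor is regulated mainly at the protein level, the RNA of its targets is the usual transcript readout of the pathway.

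RNA came from male C57Black/6 mice aged 3 months. In the MCAO groups the middle cerebral artery was coagulated near its origin and then transected, a permanent occlusion that leaves a small infarct in the parietal cortex. In the sham groups the same surgery was done without coagulation, and the control group was intact cortex. MCAO libraries numbered 5 at 3 h, 12 h, day 3 and day 7 and 4 at 24 h, and each of the 5 sham groups and the control had 4. The sources differ on the tissue. The sample labels and the study's methods for bulk RNA give injured cortex with affected and unaffected tissue. The series' design text speaks of a forebrain hemisphere, and the study's main text of almost the whole hemisphere on the injured side. How far the infarct was diluted by other tissue is therefore not settled here. In these bulk samples fewer cells of a type and less RNA per cell cannot be told apart. The labels give each library its own letter but no animal, so the p-values measure the spread between these libraries.

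Each library held 1522668 to 2826735 counts assigned to genes (median 1935856). All 12 neuron markers checked were detected in every group and 8 of 10 microglia markers were higher in MCAO than in sham at day 3. Some libraries stood apart within their group. MCAO day 3 replicate A had a summed level of the 10 microglia markers of 773 CPM (counts per 1000000 counts of a library), against 1630 to 3176 in the other 4 MCAO day 3 libraries and 342 to 437 in sham day 3, and it was the lowest of its group for 8 of the 10 HIF targets. Sham day 3 replicate C was also the lowest of its group for 8 of the 10. MCAO day 7 replicate C had the 8 fibroblast markers at a sum of 5943 CPM, against 211 to 589 in the other 4 libraries, and the microglia markers at 4520 against 1053 to 1496. MCAO 12 h replicate E had the 7 tested granulocyte markers at 1735 CPM, against 12.2 to 184.

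HIF proteins bind the core letters ACGTG and GCGTG. These cores, on either strand, were looked for in the 250 bases before the RefSeq transcription start of each member, to place the deposited read counts beside the sequences that the factor reads. The RefSeq promoter table held windows for 9 of the 10 members, 11 windows in all, since Vegfa and Pfkfb3 had 2 starts each. ACGTG was present in 8 windows of the members, GCGTG in 8 and either of them in 10. The window without a core was that of Vegfa next to the 5′ end of the gene (chr17:46032378-46032627). The Vegfa window with cores, chr17:46025164-46025413, lay inside the gene, which spans chr17:46016993-46032369. The Ankrd37 window (chr8:45999851-46000100) and 1 of the Pfkfb3 windows (chr2:11502091-11502340) also lay inside their genes. Among all 32851 windows of this length in the table, 16.6% held ACGTG, 28.2% held GCGTG and 38.6% held either. Both cores can overlap on opposite strands, and a match of 5 letters is a description of the window and not a bound site. The windows of 3 genes are printed because they set the member that passed the test, Adm, beside the member with the most cores, Bnip3, and one with a single core, Egln3. Capitals mark the cores as they read on the gene's strand, so that CACGC is GCGTG and CACGT is ACGTG on the opposite strand.
Adm, chr7:110627407-110627656 (GRCm38.p6, plus strand): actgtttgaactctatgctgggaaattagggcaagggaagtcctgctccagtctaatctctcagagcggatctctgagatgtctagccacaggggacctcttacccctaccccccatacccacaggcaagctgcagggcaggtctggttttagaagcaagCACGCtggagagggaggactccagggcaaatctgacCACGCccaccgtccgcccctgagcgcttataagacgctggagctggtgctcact
Bnip3, chr7:138909507-138909756 (GRCm38.p6, minus strand): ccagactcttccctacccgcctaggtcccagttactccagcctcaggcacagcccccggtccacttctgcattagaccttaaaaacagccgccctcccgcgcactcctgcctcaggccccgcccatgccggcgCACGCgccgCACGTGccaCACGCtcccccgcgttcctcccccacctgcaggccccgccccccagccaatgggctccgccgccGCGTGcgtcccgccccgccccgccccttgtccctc
Egln3, chr12:54203875-54204124 (GRCm38.p6, minus strand): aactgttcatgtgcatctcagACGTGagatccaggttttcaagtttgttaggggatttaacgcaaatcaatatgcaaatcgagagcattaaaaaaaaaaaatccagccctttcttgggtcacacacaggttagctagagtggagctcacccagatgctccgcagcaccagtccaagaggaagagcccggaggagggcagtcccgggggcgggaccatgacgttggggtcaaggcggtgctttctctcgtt
The Adm window held 2 GCGTG cores on the opposite strand, with the bases nearest to the start 86 and 50 bases before it. The Bnip3 window held 5 matches, 2 of ACGTG and 3 of GCGTG, with 2 of them overlapping on opposite strands. Egln3 held 1 ACGTG. In the comparisons that follow Adm, with 2 cores, passed the test and Bnip3, with 5, did not. These genes were picked for that result and for their cores, and whether cores go with a response was not tested.

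Across the 11 groups, Adm was the only one of the 10 HIF targets whose RNA differed between MCAO and sham at the threshold used, an adjusted p below 0.01 (edgeR quasi-likelihood test, Benjamini-Hochberg over all 19970 genes) with a log2 fold change beyond 0.58 in either direction. It passed at 12 h and over the mean of the 5 times. At 12 h 1 of the 10 members was called, where 0.411% of all genes were. Over the mean of the 5 times 1 of the 10 was called, where 4.89% of all genes were (4.51% higher). At 3 h, 24 h, day 3 and day 7 edgeR called 0 of the 10, where the share of all genes called was 0.11%, 0.0901%, 4.02% and 3.5% in that order. At these 4 times 4, 2, 2 and 2 of the members had an unadjusted p under 0.05, and DESeq2 also called 0 at each. Of all 19970 genes 1688, 1757, 4306 and 4698 had an unadjusted p under 0.05 at these times. The median log2 fold change of the 10 members was 0.41 at 3 h, 0.12 at 12 h, 0.08 at 24 h, 0.29 at day 3 and 0.15 at day 7, beside 0.00, 0.01, 0.02, 0.01 and 0.06 for all genes tested.

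**Figure D1:**
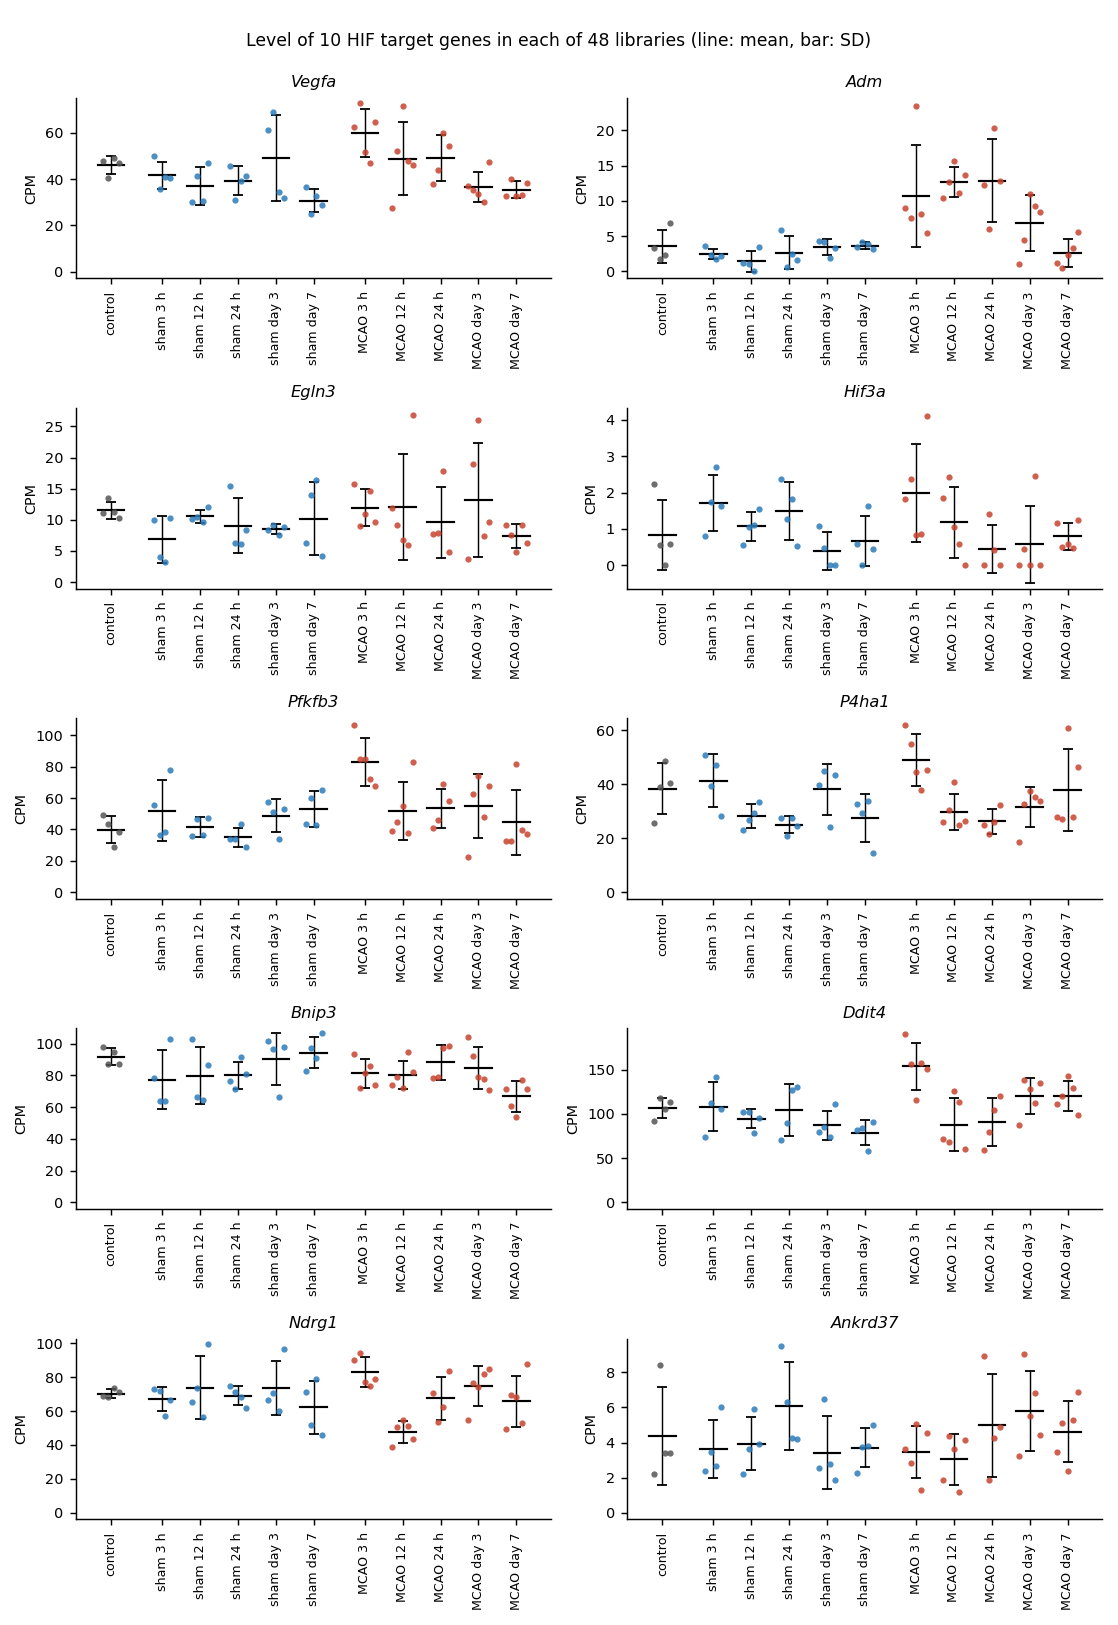
Level of each of the 10 HIF targets in CPM (vertical axis, linear) in every library (points), by group (horizontal axis; control grey, sham blue, MCAO red), with the group mean (line) and SD (bar). Adm is the one gene whose 5 MCAO 12 h libraries, 10.4 to 15.6 CPM, all lie well above the 4 sham 12 h libraries, 0 to 3.51 CPM.

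Levels are given in CPM, after scaling each library by TMM (trimmed mean of M values). The kit reads one fragment near the 3′ end of each transcript, so CPM does not grow with transcript length. In control cortex the mean levels ran from Ddit4 at 107 ± 11.5 CPM (SD, n = 4), Bnip3 at 91.9 ± 5.53 and Ndrg1 at 70.3 ± 2.49 through Vegfa at 46.1 ± 3.86, Pfkfb3 at 39.9 ± 8.61, P4ha1 at 38.4 ± 9.48 and Egln3 at 11.6 ± 1.37 to Ankrd37 at 4.37 ± 2.77, Adm at 3.54 ± 2.31 and Hif3a at 0.841 ± 0.965. Vegfa, Pfkfb3 and P4ha1 overlapped in their spread, as did Ankrd37 and Adm. Hif3a had 0 to 9 counts in a library, Adm 0 to 56 and Ankrd37 2 to 21, so the values of these 3 genes rest on few reads.

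Adm encodes adrenomedullin, a peptide that widens blood vessels and tightens the endothelial barrier through the receptor CALCRL with its partners RAMP2 and RAMP3. The gene lies at chr7:110627661-110629820 on the plus strand. At 12 h the 5 MCAO libraries stood at 10.4, 12.6, 15.6, 11.2 and 13.7 CPM, and the 4 sham libraries at 1.12, 1.04, 0 and 3.51 CPM. Every MCAO library was higher than every sham library, and sham replicate C had 0 counts, which allows a level of up to 1.11 CPM by counting error alone. The log2 fold change was 3.08 ± 0.59 (SE), an 8.48-fold difference with a 95% interval of 3.75 to 19.2 (adjusted p = 0.00209, edgeR).

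The call at 12 h depended on the sham libraries. Without sham replicate A, B or C the adjusted p was 0.0117, 0.0146 and 0.0251, and it was 0.0328 when only the 12 h groups were fitted. The log2 fold change stayed between 2.62 and 4.18 as each library was left out. Adm was also low in sham 12 h relative to control, at 1.42 ± 1.48 CPM against 3.54 ± 2.31, a log2 difference of -1.26 ± 0.68 that did not pass the test (adjusted p = 0.908, edgeR). Against control, the 12 h MCAO libraries were again all higher, since the control libraries stood at 3.35, 1.69, 2.26 and 6.85 CPM, and the log2 fold change was 1.83 ± 0.53 (adjusted p = 0.0513, edgeR).

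The other times showed Adm highest on the first day and lower later. At 3 h the MCAO libraries stood at 9.04, 7.56, 23.5, 8.18 and 5.47 CPM and the sham libraries at 3.56, 2.3, 1.79 and 2.18 CPM. At 24 h the MCAO libraries stood at 12.3, 6.08, 20.3 and 12.8 CPM and the sham libraries at 5.94, 0.632, 2.44 and 1.57 CPM. At both times the groups did not overlap, although at 24 h the lowest MCAO library was close to the highest sham library. The log2 fold changes were 2.09 ± 0.55 at 3 h (adjusted p = 0.0845) and 2.26 ± 0.57 at 24 h (adjusted p = 0.0714), neither of which passed the edgeR test. As each library was left out in turn the value at 3 h ran from 1.58 to 2.36 (adjusted p 0.0632 to 0.373). At 24 h it ran from 1.95 without MCAO replicate C to 3.00 without sham replicate A (adjusted p 0.0389 to 0.337).

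At day 3 the MCAO libraries of Adm stood at 1.07, 4.52, 11, 9.28 and 8.37 CPM and the sham libraries at 4.35, 4.15, 1.87 and 3.28 CPM. Replicate A, the library that stood apart, was the one MCAO library below all sham libraries, and the other 4 were above all of them. The log2 fold change was 0.98 ± 0.53 (adjusted p = 0.274) with replicate A and 1.25 without it (adjusted p = 0.103, edgeR). At day 7 the MCAO libraries stood at 1.15, 0.509, 2.38, 3.36 and 5.64 CPM and the sham libraries at 3.43, 4.2, 3.82 and 3.19 CPM. The day 7 groups overlapped, with a log2 fold change of -0.50 and a 95% interval of -1.70 to 0.70.

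Over the mean of the 5 times, each weighted the same, the log2 fold change of Adm was 1.58 ± 0.26 (adjusted p = 8.51e-06, edgeR), and leaving out any one library kept it between 1.48 and 1.80. The change of the Adm response between neighbouring times was tested too. It was 0.99 from 3 h to 12 h, -0.82 from 12 h to 24 h, -1.28 from 24 h to day 3 and -1.49 from day 3 to day 7 on the log2 scale, with 95% intervals that all held 0, so neighbouring times were not resolved from each other. The smallest adjusted p of these was 0.349 (edgeR). In these 4 tests of a change between neighbouring times edgeR and DESeq2 called 0 of the 10 members, where 0.01%, 0.01%, 0.01% and 0% of all genes were called, and 2, 1, 2 and 2 members had an unadjusted p under 0.05.

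Blood cell markers moved with the occlusion at 12 h. Of the 8 granulocyte markers 7 were tested and 2 were higher at 12 h, while Ly6g had 9 counts in all libraries together and was not tested. Their summed level was 3.33 to 6.62 CPM in sham 12 h, where Cxcr2 and Retnlg were at 0 in all 4 libraries, and 12.2 to 1735 CPM in MCAO 12 h. The 5 erythroid markers, of which 1 was higher at 12 h, summed to 15.6 to 138 CPM in sham and 69.7 to 1416 CPM in MCAO. Adm ran from 10.4 to 15.6 CPM among the MCAO 12 h libraries. Replicate A was the lowest library for both lists and for Adm, with a granulocyte sum of 12.2, an erythroid sum of 69.7 and Adm at 10.4 CPM. In replicate E, where the granulocyte sum was 1735 CPM, Adm was at 13.7 CPM. Without replicate E the log2 fold change of Adm was 3.05 (adjusted p = 0.00547, edgeR). The part of these cells in the Adm difference was not tested.

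**Figure D2:**
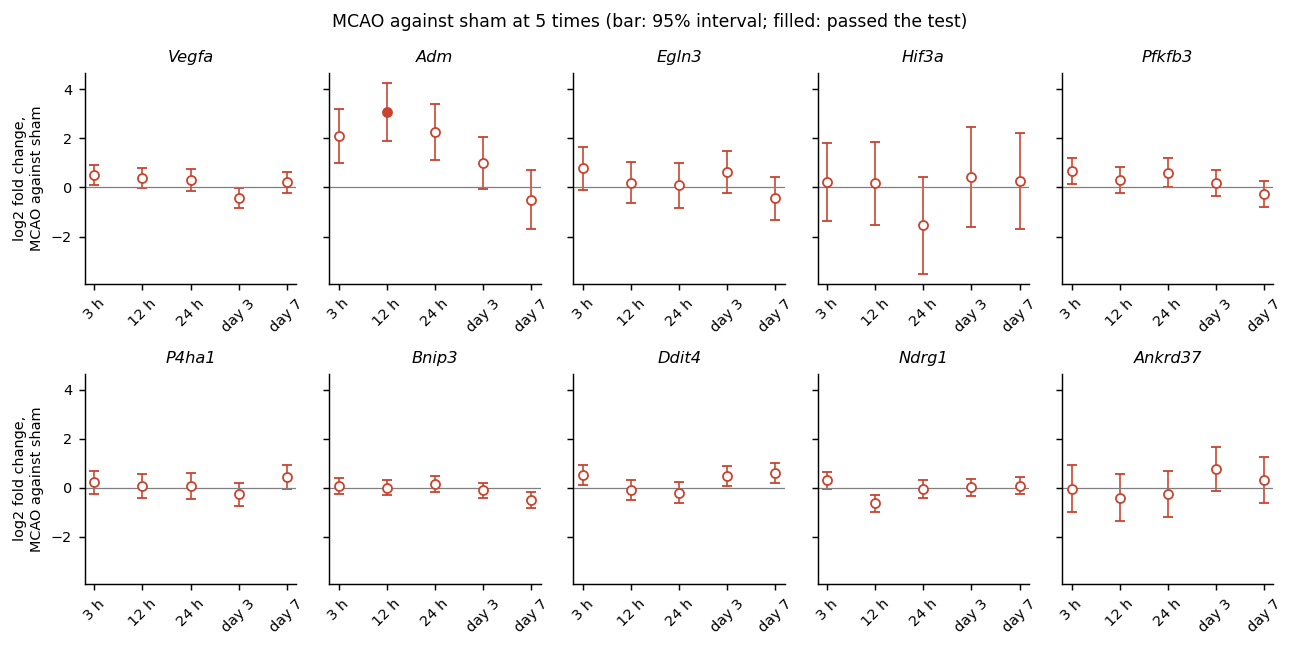
Log2 fold change of MCAO against sham (vertical axis) at each time after surgery (horizontal axis) for the 10 HIF targets, with 95% intervals (bars). The filled point, Adm at 12 h (3.08), is the one test of the 50 shown that passed. Intervals for Hif3a span up to -3.53 to 2.44, and those for Bnip3 stay within -0.81 to 0.47.

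Vegfa encodes the main growth factor for endothelial cells and raises vessel permeability. At 3 h its MCAO libraries stood at 62.7, 72.8, 51.6, 47 and 64.7 CPM and its sham libraries at 49.8, 35.7, 40.8 and 40.3 CPM. The groups overlapped by 1 sham library, and the MCAO mean of 59.7 ± 10.4 CPM was the highest group mean of this gene. The log2 fold change was 0.51 ± 0.21 with an adjusted p of 0.450 (edgeR). It was 0.39 at 12 h and 0.31 at 24 h, and -0.43 at day 3 with or without MCAO replicate A, where sham replicates A and B stood at 61.3 and 68.8 CPM, above the other 2 sham libraries at 34.6 and 31.9 CPM. At day 7 it was 0.21. Across the 5 times the 95% intervals lay between -0.84 and 0.93, that is within a 2-fold change in either direction.

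Pfkfb3 and P4ha1 stand for metabolism and matrix. PFKFB3 makes the fructose bisphosphate signal that drives glycolysis, and P4HA1 is the catalytic subunit of the prolyl hydroxylase that collagen needs to fold. Pfkfb3 was highest at MCAO 3 h, with libraries at 107, 84.6, 84.7, 71.9 and 67.4 CPM against 55.4, 36.3, 38.1 and 78 CPM in sham. Sham replicate D overlapped the MCAO range and the other 3 sham libraries lay below it. The log2 fold change at 3 h was 0.68 ± 0.26 (adjusted p = 0.414, edgeR).

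Against control, whose libraries stood at 49.1, 43.3, 28.8 and 38.2 CPM, every MCAO 3 h library of Pfkfb3 was higher, and the log2 fold change was 1.06 ± 0.27 (adjusted p = 0.0588). This comparison crossed the threshold when genes of low count were kept in (adjusted p = 0.00826) and when only the 2 groups were fitted (adjusted p = 0.00225), so its side of the threshold depended on the processing. P4ha1 had its highest group mean at MCAO 3 h as well, 48.9 ± 9.54 CPM, but sham 3 h stood at 41.3 ± 9.87 CPM, and the log2 fold change of 0.23 had a 95% interval of -0.23 to 0.70. At day 7 the P4ha1 difference was 0.46 (adjusted p = 0.249), with MCAO libraries at 27.7, 27, 60.7, 27.8 and 46.3 CPM and sham libraries at 32.6, 29.4, 33.8 and 14.6 CPM. The 2 highest MCAO libraries, replicates C and E, were above all sham libraries and the other 3 were within the sham range. Without MCAO day 7 replicate C the P4ha1 difference was 0.22 (adjusted p = 0.645) and that of Pfkfb3 moved from -0.26 to -0.59 (adjusted p = 0.193). At day 3 the values were 0.17 for Pfkfb3 and -0.27 for P4ha1, and 0.37 and -0.13 without MCAO replicate A.

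Egln3 and Hif3a are feedback members. EGLN3 is a prolyl hydroxylase that marks HIF alpha subunits in normoxia, and HIF3A is an alpha subunit with isoforms that restrain the others. Egln3 spread widely inside the MCAO groups, from 5.88 to 26.8 CPM at 12 h and from 3.74 to 26 CPM at day 3, while its 4 sham libraries kept to 9.61 to 12.1 CPM at 12 h and 7.47 to 9.23 CPM at day 3. Its log2 fold changes against sham ran from -0.45 at day 7 to 0.78 at 3 h, with adjusted p-values of 0.398 to 0.995. At day 3 the value of Egln3 was 0.63, or 0.86 without MCAO replicate A (adjusted p = 0.173). At 12 h it was 0.19, or -0.30 without MCAO replicate E. Hif3a had a median of 2 counts in a library. Its fold changes ran from -1.55 at 24 h to 0.42 at day 3 with standard errors of 0.79 to 1.01, and the day 3 value was 0.69 without MCAO replicate A, so that a 2-fold change would not be detectable at this depth. Libraries without a Hif3a count, 10 of the 48, allow levels of up to 1.27 to 1.83 CPM.

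Bnip3, Ddit4, Ndrg1 and Ankrd37 belong to stress and mitochondrial turnover. BNIP3 is an outer membrane protein of mitochondria that recruits the autophagy machinery. It was the steadiest of the members at the first 4 times, with log2 fold changes of 0.07, 0.01, 0.14 and -0.10, of which the day 3 value was -0.18 without MCAO replicate A and the 3 h and 12 h values turned negative under spike-in scaling. At day 7 its MCAO libraries stood at 71.5, 60.6, 53.5, 77.3 and 71.4 CPM and its sham libraries at 83, 97.1, 91 and 107 CPM. Every MCAO library was below every sham library and below every control library, the lowest of which was at 87.1 CPM.

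The log2 difference of Bnip3 at day 7 was -0.50 ± 0.15 (adjusted p = 0.0306, edgeR), which passed neither the p nor the fold threshold, and -0.43 without MCAO replicate C (adjusted p = 0.112). Neuron markers were lower at the same time. Their summed level was 13963 to 21110 CPM in MCAO day 7 and 26692 to 41103 CPM in sham day 7, with 3 of the 12 markers called lower and none at 0 throughout either group. The median sum was lower in MCAO than in sham at the earlier times too, with overlapping ranges. It was 24073 against 25789 CPM at 3 h and 21064 against 27713 CPM at 12 h. At 24 h it was 19626 against 31463 CPM and at day 3 21308 against 27619 CPM. The part of the day 7 shift in the Bnip3 difference was not tested.

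DDIT4, also known as REDD1, restrains the growth kinase mTORC1, and its gene responds to glucocorticoids and other stresses as well as to HIF. Its mean was highest at MCAO 3 h and stood above sham again at the late times. At 3 h the MCAO libraries of Ddit4 stood at 190, 156, 115, 157 and 151 CPM and the sham libraries at 73.9, 112, 142 and 105 CPM. The groups overlapped through MCAO replicate C, and the log2 fold change was 0.51 ± 0.20 (adjusted p = 0.450, edgeR). At 12 h and 24 h it was -0.10 and -0.20.

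At day 3 the log2 fold change of Ddit4 was 0.47 with MCAO replicate A and 0.56 without it (adjusted p = 0.167 and 0.0742). At day 7 the MCAO libraries stood at 111, 120, 143, 129 and 98.3 CPM and the sham libraries at 81.8, 84.5, 57.8 and 90.8 CPM, with no overlap. This difference, 0.61 ± 0.21 on the log2 scale, had an adjusted p of 0.0542 (edgeR), or 0.54 and 0.148 without MCAO replicate C, and sham day 7 was itself below control, where Ddit4 averaged 107 ± 11.5 CPM against 78.7 ± 14.5 CPM in sham. MCAO day 7, at 120 ± 16.9 CPM, overlapped control, and the sham to control difference of -0.44 had an adjusted p of 0.619. The difference between the changes at 24 h and day 3 was 0.67 (unadjusted p = 0.0301, adjusted p = 0.525, edgeR), so the day 3 value of Ddit4 was not resolved from that at 24 h.

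Ndrg1 encodes a stress-induced protein of Schwann cells and oligodendrocytes that is needed for peripheral myelin. At 3 h its MCAO libraries stood at 90.4, 94, 77.2, 74.5 and 78.8 CPM and its sham libraries at 72.8, 72, 57.4 and 66.5 CPM, with every MCAO library higher. At 12 h the order turned round. MCAO libraries stood at 38.9, 50.5, 54.8, 51.2 and 43.5 CPM and sham libraries at 65.4, 73.5, 56.6 and 99.7 CPM, with every MCAO library lower than every sham and every control library.

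The log2 fold change of Ndrg1 was 0.30 ± 0.17 at 3 h (adjusted p = 0.655) and -0.63 ± 0.17 at 12 h (adjusted p = 0.0485, edgeR), so neither passed. The change from 3 h to 12 h was -0.94 ± 0.24, with an unadjusted p of 0.000367 and an adjusted p of 0.349. By 24 h the log2 fold change was -0.04, and at day 3 it was 0.02, or 0.12 without MCAO replicate A. Without MCAO 12 h replicate E the 12 h value was -0.60 (adjusted p = 0.117). Oligodendrocyte markers moved the same way at 12 h. All 10 had a negative log2 fold change there, with a median of -0.75, although edgeR called 0 of them at 12 h, where 0.411% of all genes were called. An unadjusted p under 0.05 was found for 5 of the 10 and for 2917 of all 19970 genes. The markers summed to 966 to 2065 CPM in MCAO and 1713 to 3881 CPM in sham, with none of the 10 at 0 in all libraries of either group. At 3 h the median log2 fold change of the 10 oligodendrocyte markers was 0.08. It was 0.27 at 24 h, 0.66 at day 3 and 0.41 at day 7, with 9, 9 and 8 of the 10 above 0. The part of these cells in the Ndrg1 difference was not tested.

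**Figure D3:**
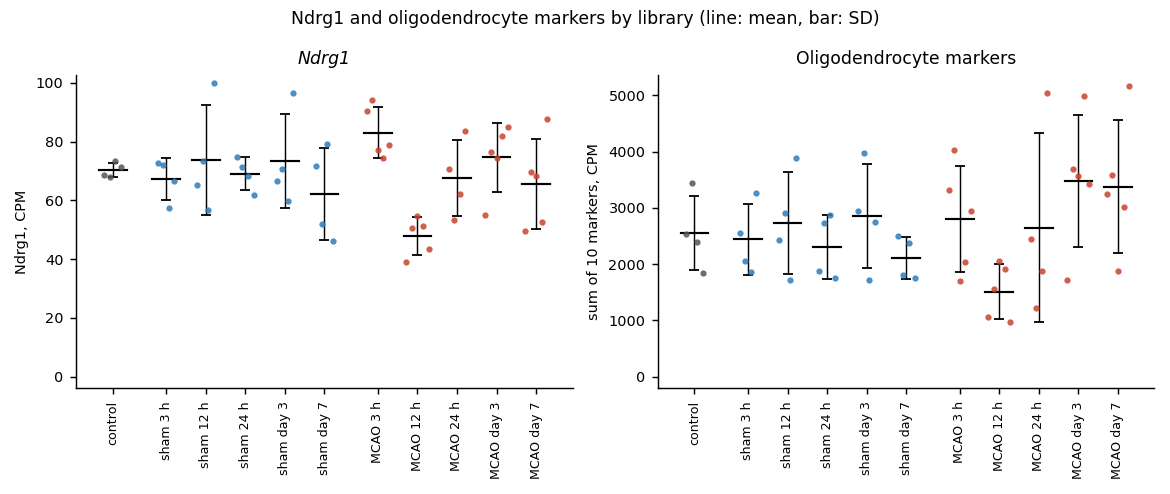
Ndrg1 in CPM (left) and the summed CPM of 10 oligodendrocyte markers (right) in every library (points), by group (horizontal axis), with mean (line) and SD (bar). MCAO 12 h is the lowest group in both panels, at 38.9 to 54.8 CPM for Ndrg1 and 966 to 2065 CPM for the markers.

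Ankrd37 encodes an ankyrin repeat protein whose gene is strongly HIF-driven in cultured cells. It stayed between 1.18 and 9.5 CPM in all 48 libraries. Its largest difference was at day 3, where MCAO libraries stood at 3.2, 9.04, 5.49, 6.84 and 4.41 CPM and sham libraries at 2.54, 6.46, 2.8 and 1.87 CPM. The groups overlapped, and the log2 fold change was 0.76 ± 0.45 (adjusted p = 0.329, edgeR), or 0.91 without MCAO replicate A. Ankrd37 overlaps 2 genes on the opposite strand, Lrp2bp by 6405 bases and Ufsp2 by 57 bases, and its 412 counts in all stand beside 8247 of Ufsp2. Whether the counting used strand is not given in the sources used here, so reads of Ankrd37 and these genes may not be fully separated. Adm also has an antisense neighbour, Gm28863, which had 0 counts in every library.

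Leaving Adm aside, the 9 other members gave 45 tests of MCAO against sham at single times. Their log2 fold changes ran from -1.55 to 0.78, with 31 of the 45 above 0. Of the 45 intervals 28 lay within a 2-fold change in either direction. The 9 genes share the same libraries at each time, so these tests are not independent, and some signs turned under spike-in scaling. The comparisons with control share the same 4 control libraries. No member was called against control at any of the 5 times by edgeR, where 0.13%, 0.856%, 0.28%, 3.1% and 1.5% of all genes were called from 3 h to day 7, while 3, 2, 2, 0 and 1 members had an unadjusted p under 0.05 and DESeq2 called 0 at each time.

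Surgery without occlusion did not move the members past the threshold either. Sham against control called 0 of the 10 by edgeR at every time, where 0%, 0.0351%, 0.01%, 0% and 0% of all genes were called from 3 h to day 7, and 0 over the mean of the 5 times, where 0.02% were. DESeq2 called 0 in each of these as well. An unadjusted p under 0.05 was found for 1 member at 24 h, P4ha1 (-0.61 on the log2 scale), for 2 at day 7, Vegfa and Ddit4 (-0.59 and -0.44), and for 0 at the other times and over the mean. In sham day 7 all 4 libraries of Vegfa, at 36.6, 24.7, 32.7 and 28.7 CPM, lay below all 4 control libraries, at 48, 40.5, 49.1 and 46.8 CPM. The adjusted p was 0.578.

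Other genes of the pathway were read from a list of 39 further HIF targets, of which 38 were tested and Epo had 0 counts. At 12 h 2 rose, Hmox1 (5.04 ± 0.98, adjusted p = 0.00278), which breaks down heme, and Hk2 (2.02 ± 0.44, adjusted p = 0.00849), which starts glycolysis. At day 3 6 rose and none fell. They were Hmox1 (4.76), the collagen cross-linker Lox (4.52), the chemokine receptor Cxcr4 (4.38), the lipase inhibitor Angptl4 (3.50), the lactate exporter Slc16a3 (3.38) and Hk2 (2.69), all as log2 fold changes. At day 7 Lox (5.16), Cxcr4 (4.71) and Hk2 (1.86) rose and Hk1 (-0.63), another enzyme that starts glycolysis, fell. At 3 h and 24 h edgeR called 0 of the 38, with an unadjusted p under 0.05 for 11 and 10 of them.

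Most of the calls at single times depended on single libraries. As each of the 9 libraries compared was left out in turn, Hmox1, Hk2 and Slc16a3 at day 3 stayed called in all 9 fits, and Cxcr4 in 8 (log2 fold change 3.45, adjusted p = 0.0145, without MCAO replicate C). Angptl4 and Lox stayed called in 4 of the 9, with log2 fold changes of 2.87 to 3.92 and 3.47 to 4.94 and adjusted p-values up to 0.0267 and 0.0520. Without MCAO day 3 replicate A 7 of the 38 were called, the seventh being Hilpda (1.26, adjusted p = 0.00660), a lipid droplet protein. Angptl4 was lost without MCAO replicate C or E or sham replicate B, C or D, and Lox without MCAO replicate E or any one sham library. At 12 h Hmox1 stayed called in 4 of 9 fits (4.15 to 5.32, adjusted p up to 0.0271), being lost without MCAO replicate C or any one sham library. Hk2 at 12 h stayed called in 2 of 9 (1.70 to 2.28, adjusted p up to 0.0536), those without MCAO replicate A or B.

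None of the day 7 calls in this list held without MCAO replicate C. Without it edgeR called 0 of the 38, where 1.42% of all genes were called. Lox was then at 2.47 (adjusted p = 0.239), Cxcr4 at 3.61 (adjusted p = 0.0496), Hk2 at 1.34 (adjusted p = 0.0515) and Hk1 at -0.63 (adjusted p = 0.0207), and 11 of the 38 had an unadjusted p under 0.05. Cxcr4 and Hk2 were also lost without sham replicate A, B or D, Lox without any one sham library, and Hk1 in 7 of the 9 fits. The 8 fibroblast markers summed to 211 to 5943 CPM in MCAO day 7 and 83.5 to 144 CPM in sham, with 6 of the 8 higher, or 3 without replicate C. The 9 markers of peripheral macrophages and monocytes summed to 24.8 to 132 CPM against 6.39 to 15.8 CPM, with 2 of the 9 higher, or 0 without replicate C, which was the highest library for both lists. Their part in the day 7 differences was not tested.

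The shares of the list stand beside 0.346% of all genes called higher at 12 h, 3.76% at day 3 and 2.07% at day 7, and 1.43% called lower at day 7. Scaled by spike-ins, 463 of the 594 genes called at day 3 and 403 of the 489 called at day 7 were higher, against 750 of 802 and 413 of 698 with TMM, and at 3 h 9 of 14 against 18 of 22. The median log2 fold change of the 38 was 0.33, 0.24, 0.20, 0.044 and 0.23 from 3 h to day 7, with 33, 29, 28, 21 and 22 of them above 0. Hk2 ran from 3.13 to 8.94 CPM in sham 12 h and from 12.1 to 42.3 CPM in MCAO 12 h, and from 5.44 to 8.9 CPM in sham day 3 and from 7.47 to 75.4 CPM in MCAO day 3. Several genes of this list are also expressed by blood-borne and scar-forming cells. At day 3 the 9 markers of peripheral macrophages and monocytes summed to 13.3 to 289 CPM in MCAO and 9.79 to 14.3 CPM in sham, with 4 of the 9 higher, and the 8 fibroblast markers to 179 to 1709 CPM against 126 to 212 CPM, with 4 of the 8 higher. The 10 microglia markers summed to 773 to 3176 CPM in MCAO day 3 and 342 to 437 CPM in sham. The 10 endothelial markers summed to 333 to 788 CPM against 354 to 383 CPM. The part of all these cells in the day 3 differences was not tested.

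**Figure D4:**
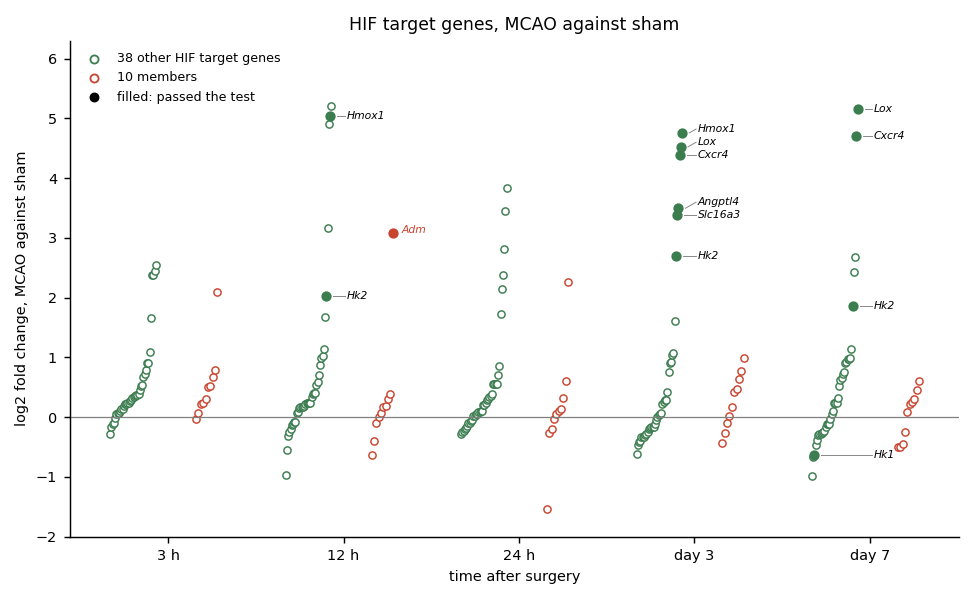
Log2 fold change of MCAO against sham (vertical axis) at 5 times (horizontal axis) for 38 other HIF targets (green) and the 10 members (red), each gene 1 point, ordered by value at each time; filled points passed the test and are named. At day 3 the 6 called genes lie at 2.69 to 4.76, above every member, the highest of which is Adm at 0.98.

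The genes of the oxygen-sensing machinery itself did not pass at any time against sham. edgeR called 0 of 15 (the HIF subunits, the hydroxylases, VHL and its partners) at each of the 5 times. Of all genes 0.11%, 0.411%, 0.0901%, 4.02% and 3.5% were called from 3 h to day 7. An unadjusted p under 0.05 was found for 1, 2, 0, 3 and 7 of the 15, beside 1688, 2917, 1757, 4306 and 4698 of all 19970 genes. Hif1a, the alpha subunit found in most cells, was measured at 36.5 to 44.1 CPM in control and 47.5 to 106 CPM in MCAO day 3. Its log2 fold change against sham was 0.50 ± 0.19 at day 3 (adjusted p = 0.108), or 0.61 without MCAO replicate A (adjusted p = 0.0300), and 0.48 ± 0.20 at day 7 (adjusted p = 0.126), or 0.35 without MCAO replicate C (adjusted p = 0.346). Against control it passed at day 3, at 0.79 (adjusted p = 0.00866), or 0.90 without MCAO replicate A (adjusted p = 0.00147). That call was lost without MCAO replicate C or E or any one control library, with values down to 0.60 and adjusted p up to 0.0770.

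Receptors and partner ligands of VEGF and adrenomedullin, 12 genes, were called only at day 7 among the single times against sham, 2 of the 12, where 3.5% of all genes were. Without MCAO day 3 replicate A, 1 of the 12, Kdr, a receptor of VEGF, was called at day 3, where 6.79% of all genes were (adjusted p = 0.00113 in place of 0.0153). Nrp1, a co-receptor of VEGF, rose by 1.21 ± 0.32 on the log2 scale (adjusted p = 0.00998), from 29.7 to 43.1 CPM in sham to 38.2 to 246 CPM in MCAO. Without MCAO replicate C it was 0.40 ± 0.23 (adjusted p = 0.323), and it was lost without any one sham library too. Ramp3, one of the partners that make CALCRL an adrenomedullin receptor, fell by 2.12 on the log2 scale (adjusted p = 0.000329), from 24.3 to 69.8 CPM in sham day 7 to 6.54 to 14.8 CPM in MCAO day 7. It stayed called in all 9 fits with a library left out, and was at -2.02 without MCAO replicate C (adjusted p = 0.00238). The other partner, Ramp2, was at 0.28 ± 0.31 (adjusted p = 0.622). Over the mean of the 5 times Nrp2, also of this list, was called higher (0.81 ± 0.19, adjusted p = 0.00178, edgeR). Ramp3 was called lower over that mean (-0.61 ± 0.17, adjusted p = 0.00967, edgeR), where 4.89% of all genes were called. The microglia markers summed to 1053 to 4520 CPM in MCAO day 7 and 476 to 609 CPM in sham, beside the fibroblast and neuron sums given above, and their part in these differences was not tested. By then the ligand gene Adm was below the sham range in 3 of the 5 MCAO libraries, within it in 1 and above it in 1.

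Genes whose group means followed those of a member most closely were sought among 11739 genes with a mean of at least 5 CPM. The measure was Pearson's r over the 11 group means of log2(CPM + 1), which come from the same libraries and scaling. Near to Adm were Dusp26 (0.95) and Pde4b (0.94). For Vegfa the nearest were Scyl2 (0.95), Rwdd4a (0.92) and Lonrf1 (0.91), for P4ha1 Ube2h (0.97), Nr4a3 (0.92) and Slc25a42 (0.92), and for Ddit4 Vcl (0.94), Nab2 (0.94) and Gramd1a (0.92). The other 6 members had their nearest gene at 0.84 for Egln3 (Smad2) to 0.90 for Ndrg1 (Slc35c1). No member was among the 3 nearest genes of another member. Hif3a and Ankrd37 averaged below 5 CPM, so they were not in the ranked pool and could not appear. Whether the members moved together was not tested.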

How the data were processed

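RNA-seq libraries of polyadenylated RNA (QuantSeq 3′ FWD kit, with ERCC spike-ins) from mouse brain, cortex by the labels, were analysed in 48 samples. The 11 groups were taken from the labels. The authors trimmed reads, removed ribosomal and mitochondrial reads, aligned the rest to GRCm38 with STAR 2.5.2b (submitters' processing notes) and counted them over Gencode genes with htseq-count in union mode. They deposited 1 table of unnormalized read counts for every library. A normalized matrix of the whole series was not used here. Unassigned classes were left out of library sizes. Of the reads these tables list, 21.1% to 30.6% had no feature and 24.0% to 37.3% aligned to several places.

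Counts were tested in edgeR 4.0.16 (TMM, quasi-likelihood, 1 fit of 11 groups without covariates) on the 19970 genes with more than 10 counts, with Benjamini-Hochberg adjustment over all of them. Thresholds follow the study's methods. Intervals of fold changes are 95% intervals from the fit. Alternatives were DESeq2 1.42.0, its size factors within edgeR, spike-in scaling, other count filters, a fit of only the groups compared, a block for the replicate letter, and each library left out. The script was tested on simulated data.

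The members and gene lists were chosen with earlier results of these data known. All 10 members are named in each comparison. Of other lists the called genes are named, at most 6 per list and comparison, largest change first. The genes with the most similar group means are named for Adm, Vegfa, P4ha1 and Ddit4, and the nearest gene for Egln3 and Ndrg1. A gene of the HIF target list and a gene similar to Adm are not reported here. Gene positions are from Gencode vM21 on GRCm38, promoter windows from RefSeq on GRCm38.p6.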

Additional observations from a re-analysis of the deposited data

Results flagged for a closer look

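Among 110 sets of a member's libraries in 1 group, 4 held a library far from the others by Dixon's ratio on log2(CPM + 1), where chance alone flags about 1 in 20. Pfkfb3 in MCAO day 7 replicate C stood at 81.5 CPM against 32.3 to 39.3 CPM in the other 4 libraries (ratio 0.789). P4ha1 in MCAO day 3 replicate A stood at 18.7 CPM against 32.5 to 37.5 CPM (ratio 0.796), which is the library that was also lowest for 8 of the 10 members. P4ha1 in sham day 7 replicate D stood at 14.6 CPM against 29.4 to 33.8 CPM (ratio 0.832). Bnip3 in sham day 3 replicate C stood at 66.3 CPM against 96.5 to 102 CPM (ratio 0.872), and this library was the lowest of its group for 8 of the 10 members. No member's response to MCAO differed between neighbouring times at the threshold used.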

How the results depend on the processing

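The count of members called at 12 h, which was Adm alone, fell from 1 to 0 when only the 12 h groups were fitted, where 16617 genes were tested in fewer samples, and ranged from 0 to 1 as single libraries were left out (0 without sham 12 h replicate A, B or C). Against control at 3 h it rose from 0 to 1 member, Pfkfb3, without a filter on low counts and with only the groups compared; the cause was not tested. Of 411 recomputed counts of called members 405 did not move, and Adm over the mean of the 5 times was called under every alternative run, with adjusted p-values of 6.22e-09 to 4.93e-05 and, with a library left out, 1.27e-06 to 3.59e-05. That mean was not refitted with only the groups compared.

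Signs turned only where the log2 fold change against sham was small, at most 0.42 in size, and not called. Spike-in scaling, which moved the median of all genes by -0.098, -0.11, 0.12, -0.23 and 0.087 from 3 h to day 7, gave -0.026 for Bnip3 at 3 h, -0.10 for Bnip3 and -0.058 for P4ha1 at 12 h, 0.077 for Ndrg1 at 24 h, and -0.10 for Pfkfb3 and -0.23 for Ndrg1 at day 3. With a library left out, values ranged at 3 h from -0.23 to 0.53 for Hif3a, -0.012 to 0.24 for Bnip3 and -0.22 to 0.30 for Ankrd37, and at 12 h from -0.30 to 0.35 for Egln3, -0.21 to 0.45 for Hif3a, -0.068 to 0.17 for P4ha1 and -0.0896 to 0.14 for Bnip3. At 24 h they ranged from -0.39 to 0.48 for Egln3, -0.054 to 0.14 for P4ha1, -0.15 to 0.0602 for Ndrg1 and -0.74 to 0.029 for Ankrd37. At day 3 they ranged from -1.41 to 1.55 for Hif3a and -0.061 to 0.18 for Ndrg1, at day 7 from -0.15 to 1.10 for Hif3a and -0.052 to 0.22 for Ndrg1, and over the mean from -0.46 to 0.13 for Hif3a and -0.021 to 0.17 for Ankrd37.

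Replicate letters did not pair the samples, since same-letter deviations correlated at -0.26 to 0.29 over 60 pairs and 18 matched best with their own letter. With the replicate letter as a block, 1 member was called at 12 h and 1 over the mean, as without it, Ndrg1 at day 3 went to -0.0058, and 53 in place of 82 genes were called at 12 h. Counts of all genes called against sham ranged over the alternatives from 14 to 58 at 3 h, 13 to 179 at 12 h, 16 to 55 at 24 h, 339 to 1027 at day 3 and 302 to 1088 at day 7, against 22, 82, 18, 802 and 698. Without MCAO day 3 replicate A 1353 were called at day 3 and without sham day 3 replicate C 526, 283 were called at day 7 without MCAO replicate C, and 32 at 12 h without MCAO replicate E. Leaving out these 4 libraries for the lists of other genes was chosen after seeing the data. Hif3a, Adm and Ankrd37 were limited by depth, with medians of 2, 9 and 7 counts in a library.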
